A study of Mus musculus with 4 samples.

Results

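The miR-181 family of the mouse was followed through 4 small RNA libraries labelled as RNA immunoprecipitations of Argonaute2 (AGO2), the protein that carries mature miRNAs to their target RNAs. The 10 mature names of the family, the 5p and 3p arms of miR-181a, b, c and d, were taken by name from a count table of 1900 mature miRNA names, and all 10 were in it, there with the mouse prefix mmu-, which is left out after the sequences below. Of the whole table, 1106 names had a count in at least 1 library. The GFP-AGO2 group (2 libraries) was labelled as given the viral vector LV.PGK.GFP-AGO2, whose name holds AGO2 joined to green fluorescent protein behind the PGK promoter, a promoter active in many cell types. The Control group (2 libraries) was labelled as sham-injected, with no vector. Both groups were C57BL/6 mice, and in both the olfactory bulb was dissected 8 weeks after injection. The study is concerned with newborn neurons of the bulb, but the labelled source is freshly dissected bulb tissue. Nothing in the sources used here names the antibody or says which protein, the fusion or the cells' own AGO2, was precipitated. What the Control libraries hold is therefore not known, and each difference below is one between libraries so labelled, in which precipitated material and injection cannot be told apart. Nor do they state whether replicates are different animals, so the p-values cover library-to-library spread alone, part or all of which could be technical.

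MiRNAs are cut from RNA hairpins as a duplex of a 5p and a 3p strand, and Argonaute keeps mostly 1 strand of each duplex. Bases 2 to 8 of the kept strand, the seed, choose the target RNAs by pairing. The miR-181 family is conserved among vertebrates and is well known for tuning antigen receptor signalling in developing T cells. In the brain it is abundant in neurons of the forebrain, and miR-181a has been studied at synapses as a repressor of an AMPA receptor subunit.

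All 10 names matched a RefSeq entry of build GRCm38.p6, the assembly that mm10 names. The 8 sequences with enough counts for a test are shown so that shared and separate seeds can be seen; they run 5′ to 3′, and capitals mark the seed.
mmu-miR-181a-5p: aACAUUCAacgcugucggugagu
mmu-miR-181b-5p: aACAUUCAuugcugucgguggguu
mmu-miR-181c-5p: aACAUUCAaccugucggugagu
mmu-miR-181d-5p: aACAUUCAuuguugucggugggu
mmu-miR-181a-1-3p: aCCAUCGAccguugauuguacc
mmu-miR-181a-2-3p: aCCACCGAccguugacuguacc
mmu-miR-181b-1-3p: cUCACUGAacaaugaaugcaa
mmu-miR-181c-3p: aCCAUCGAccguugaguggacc
The 4 5p arms shared 1 seed, ACAUUCA, and no other mature name of the RefSeq table had it. The 3p arms were split over 4 seeds. MiR-181a-1-3p and miR-181c-3p had CCAUCGA in common, miR-181b-1-3p and miR-181b-2-3p had UCACUGA in common, and miR-181a-2-3p and miR-181d-3p each had one of their own.

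Members of the family are close enough for reads to be assigned to a relative. MiR-181d-5p differed from miR-181b-5p by the substitution C12U (positions counted from 1 at the 5′ end, miR-181b-5p base first) and by length, and miR-181c-5p could be made from miR-181a-5p by 1 edit, the loss of a base. MiR-181a-2-3p differed from miR-181a-1-3p by U5C and U16C, miR-181a-1-3p base first. Levels of these pairs are uncertain to the extent that reads with errors could pass between them, which was not tested.

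The family comes from 6 hairpins in 3 genomic clusters, each of which makes an a- or c-type and a b- or d-type miRNA. On chromosome 1 (plus strand) miR-181a-1 and miR-181b-1 lay within 241 bases, from 137966468 to 137966708, inside an intron of the non-coding gene Gm4258, and miR-181b-1 also lay in an exon of the lincRNA A430106G13Rik (GENCODE, GRCm38). On chromosome 2 (plus strand) miR-181a-2 and miR-181b-2 lay within 1164 bases, from 38852741 to 38853904, in an intron of Nr6a1, a nuclear receptor gene on the opposite strand. On chromosome 8 (minus strand) miR-181c and miR-181d lay within 226 bases, from 84178720 to 84178945, in an intron of Nanos3, a germ cell gene on the same strand. No other name of the count table overlapped a member. MiR-181a-5p and miR-181b-5p are each made by 2 hairpins, on chromosomes 1 and 2, so their counts could not be split between these clusters. The 3p names are specific to 1 hairpin each. The hairpins of miR-181a show this, with both mature arms in capitals: the left arm is the same in both and the right arm is not. The hairpin of miR-181b-1 follows, since its 3p arm also turned out to differ between the groups.
Mir181a-1, chr1:137966455-137966541: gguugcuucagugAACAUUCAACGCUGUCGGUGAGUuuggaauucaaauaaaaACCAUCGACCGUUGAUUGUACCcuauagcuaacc
Mir181a-2, chr2:38852735-38852810: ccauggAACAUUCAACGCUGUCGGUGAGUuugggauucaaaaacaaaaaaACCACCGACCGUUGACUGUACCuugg
Mir181b-1, chr1:137966639-137966718: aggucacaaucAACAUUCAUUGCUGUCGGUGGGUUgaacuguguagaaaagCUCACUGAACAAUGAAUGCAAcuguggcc
The interval counted as miR-181a-2-3p, 38852788 to 38852809, lay 3 bases to the right of the RefSeq arm, and that of miR-181b-1-3p ended 2 bases before it.

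Libraries held 1858354 to 2809758 miRNA counts in GFP-AGO2 and 673916 to 1006861 in Control. Neuron-enriched miRNAs were present, at 5.11% to 5.73% of the counts in GFP-AGO2 and 4.45% to 5.08% in Control; of 23 tested names 4 rose and 1 fell, with a median log2 fold change of 0.15. Names of a list of epithelial miRNAs took 2.62% and 5.12% of the counts in GFP-AGO2 and 23.9% and 23.4% in Control. Of its 14 tested names, 13 fell. This list held names of the miR-200 family and of miR-182 and miR-183, among others. Whether these counts came from epithelium was not tested. Blood and immune names took 0.00776% and 0.0231% in GFP-AGO2 and 0.0639% and 0.0556% in Control, with 3 of 4 tested names falling. Vessel names took 0.0292% and 0.148% in GFP-AGO2 and 0.433% and 0.311% in Control, with 1 of 3 falling. Of all 457 tested names, 17.3% rose and 17.1% fell by the same test, which is described below. The vessel marker miR-126a-3p was listed at 0 in all libraries, as were 4 of the 5 oligodendrocyte names. The part of these differences in the results below was not tested. Levels are in CPM, the usual unit of counts relative to library size, with library sizes scaled by the trimmed mean of M values (TMM), and log2 fold changes are given as GFP-AGO2 relative to Control.

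The 10 names spanned from the most abundant miRNAs of these libraries to single counts. MiR-181a-5p ranked 8th to 9th of all names in each library, miR-181b-5p 16th to 21st and miR-181d-5p 76th to 82nd. In GFP-AGO2 the order by mean CPM was miR-181a-5p, miR-181b-5p, miR-181d-5p, miR-181a-1-3p, miR-181c-5p, miR-181a-2-3p, miR-181b-1-3p, miR-181c-3p, miR-181b-2-3p and miR-181d-3p. In Control it was miR-181a-5p, miR-181b-5p, miR-181d-5p, miR-181c-5p, miR-181a-2-3p, miR-181a-1-3p, miR-181c-3p, miR-181b-1-3p, miR-181d-3p and miR-181b-2-3p. Neighbours in this order had separate libraries, except miR-181b-1-3p and miR-181c-3p in GFP-AGO2, miR-181b-1-3p and miR-181d-3p in Control, and miR-181b-2-3p and miR-181d-3p in both. The most visible change of place was that of miR-181a-1-3p. It stood above miR-181c-5p and miR-181a-2-3p in GFP-AGO2 and below both in Control.

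**Figure D1:**
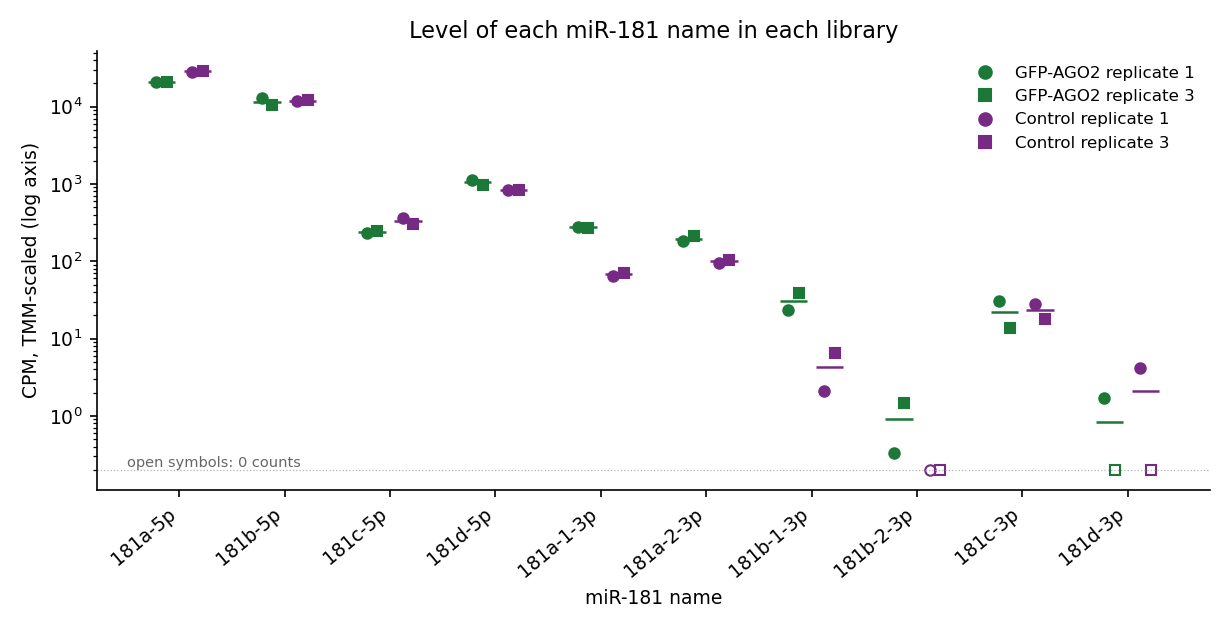
Level of the 10 miR-181 names in each library, as TMM-scaled CPM on a log axis; each symbol is a library, the short lines are group means, and open symbols on the dotted line are libraries with 0 counts. On this log axis the groups lie closer together for the 5p names than for miR-181a-1-3p, but among the 5p names only miR-181b-5p overlaps. MiR-181a-1-3p lies at 267 to 280.4 CPM in GFP-AGO2 and 64.4 to 70.9 CPM in Control.

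As a whole the family made up 3.75% (95% exact Clopper-Pearson interval 3.73 to 3.77) and 3.61% (3.59 to 3.64) of the miRNA counts in GFP-AGO2 replicates 1 and 3, against 3.95% (3.92 to 3.99) and 3.82% (3.78 to 3.87) in Control replicates 1 and 3. The intervals cover counting error only, since PCR copies are counted as reads. Both GFP-AGO2 libraries lay below both Control libraries, by 0.208 percentage points between the means. The exact two-sided permutation test gave p = 0.333, the smallest value that 2 libraries against 2 allow. With the epithelial names left out of the total, the family took 3.85% and 3.81% in GFP-AGO2 and 5.20% and 4.99% in Control, a difference of -1.27 points.

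In the comparison of GFP-AGO2 with Control, the 3p arms of miR-181a-1, miR-181a-2 and miR-181b-1 rose, the abundant miR-181a-5p fell, and the other 4 of 8 tested names did not pass the test. These were 3 names called higher, where 17.3% of all 457 tested names were called higher, and 1 called lower, where 17.1% were. The test was edgeR's quasi-likelihood F test with Benjamini-Hochberg adjustment over all 457 names, with a call at an adjusted p under 0.05. The median log2 fold change was 0.14 over the 8 names and -0.01 over all names tested. All 3 rises were in 3p arms, and miR-181b-1-3p was tested only because of its GFP-AGO2 counts. Of the 228 tested 3p names of the table, 48 rose (21.1%), and of the 195 tested 5p names, 31 fell (15.9%). In 4 of the 8 names both GFP-AGO2 libraries lay above both Control libraries and in 2 both lay below, against 36.8% and 35.2% of all tested names.

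Among the 5p arms, which carry the family seed, miR-181a-5p had 61664 and 42300 counts in GFP-AGO2 and 27059 and 17638 in Control. Scaled, these were 20732 and 20735 CPM in GFP-AGO2 and 28099.9 and 29088 CPM in Control. The GFP-AGO2 libraries were almost equal, and both lay below both Control libraries. The means were 20733 ± 2.27 CPM in GFP-AGO2 and 28594 ± 699 CPM in Control (SD, n = 2 each), a log2 fold change of -0.46 (SE 0.11, edgeR adjusted p = 0.0275). This call was lost with total counts in place of TMM (-0.25, edgeR adjusted p = 0.132) and with no filter on low counts (-0.22, edgeR adjusted p = 0.462). With the replicate number as a block the call was lost too (-0.46, edgeR adjusted p = 0.112). It was also lost without Control replicate 1 (-0.39, edgeR adjusted p = 0.412) or Control replicate 3 (-0.45, edgeR adjusted p = 0.362), fits in which the lone Control library is assumed to vary like the GFP-AGO2 libraries. Total counts moved the median of all names by 0.22. Relative to that median miR-181a-5p stood at -0.45 under both scalings. A shift shared by all names leaves this value in place by itself, so it is no support for the call.

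MiR-181b-5p, made beside miR-181a in both clusters, did not pass the test. It had 12789.9 and 10453 CPM in GFP-AGO2 and 11846 and 12082 CPM in Control, so that the Control libraries lay between those of GFP-AGO2. Its log2 fold change was -0.04 (SE 0.15, edgeR adjusted p = 0.864) and was 0.17 with total counts. The miR-181b-5p count was 0.617 and 0.504 of the miR-181a-5p count in GFP-AGO2 and 0.422 and 0.415 in Control, higher in both GFP-AGO2 libraries; this ratio within a library needs no scaling.

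Neither 5p arm of the chromosome 8 cluster passed the test. MiR-181d-5p had 1139 and 958 CPM in GFP-AGO2 and 841 and 833 CPM in Control, both GFP-AGO2 libraries being the higher ones. Its log2 fold change was 0.33 (SE 0.15, edgeR adjusted p = 0.162); it was called higher with total counts (0.54, edgeR adjusted p = 0.0474) and with no filter (0.57, edgeR adjusted p = 0.0299). Without 1 library it was 0.22 to 0.46 and not called. MiR-181c-5p had 229 and 244 CPM in GFP-AGO2 and 367 and 305 CPM in Control, both GFP-AGO2 libraries being the lower ones. Its log2 fold change was -0.51 (SE 0.17, edgeR adjusted p = 0.0731), and it was called lower with a minimum count of 50 in the filter (-0.60, edgeR adjusted p = 0.0322). The value was nearer to 0 and not called with total counts (-0.30, edgeR adjusted p = 0.286), with no filter (-0.27, edgeR adjusted p = 0.541) and without Control replicate 1 (-0.27, edgeR adjusted p = 0.418). The count of miR-181d-5p was 4.98 and 3.93 times that of miR-181c-5p in GFP-AGO2 and 2.29 and 2.73 times in Control. These ratios are a description of the 4 libraries, with no test of their difference.

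The 3p arm of miR-181a-1 had 834 and 545 counts in GFP-AGO2 against 62 and 43 in Control, and 280.4 and 267 CPM in GFP-AGO2 against 64.4 and 70.9 CPM in Control. Each group was tight and the groups were far apart. It rose by 2.02 on the log2 scale (SE 0.18, edgeR adjusted p = 0.00267), or 4.06-fold, with 274 ± 9.36 CPM in GFP-AGO2 and 67.7 ± 4.62 CPM in Control (SD, n = 2 each). The rise was called in each alternative tried, between 1.93 and 2.26.

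MiR-181a-2-3p, the arm of the chromosome 2 hairpin, had 546 and 428 counts in GFP-AGO2 and 92 and 63 in Control. Scaled, these were 184 and 209.8 CPM in GFP-AGO2 and 95.5 and 104 CPM in Control, again without overlap. It rose by 0.98 on the log2 scale (SE 0.19, edgeR adjusted p = 0.0141), or 1.97-fold. This rise too was called in each alternative, between 0.89 and 1.22. The ratio of miR-181a-1-3p to miR-181a-2-3p counts was 1.53 and 1.27 in GFP-AGO2 and 0.674 and 0.683 in Control. By these counts the chromosome 1 arm was the more abundant in GFP-AGO2 and the chromosome 2 arm in Control. For shares of the miRNA counts, the 95% exact intervals of these arms overlapped in each Control library. In each GFP-AGO2 library they were separate.

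MiR-181b-1-3p was rare, with 69 and 79 counts in GFP-AGO2 and 2 and 4 in Control, or 23.2 and 38.7 CPM in GFP-AGO2 and 2.08 and 6.60 CPM in Control. Both GFP-AGO2 libraries stood well above both Control libraries, but the Control level rests on a handful of reads. It rose by 2.93 on the log2 scale (SE 0.68, edgeR adjusted p = 0.0251). The name passed the filter on low counts only through its GFP-AGO2 counts, so this test was not free of the direction found. The pooled counts gave a ratio of 7.72 with a 95% exact counting interval of 3.46 to 21.4. That interval leaves out the spread between libraries. The value was 2.30 and not called without Control replicate 1 (edgeR adjusted p = 0.0625) and 3.83 without Control replicate 3 (edgeR adjusted p = 0.00925). With a minimum count of 50 it was not tested.

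The 3p arm of miR-181c had 91 and 28 counts in GFP-AGO2 and 27 and 11 in Control, or 30.6 and 13.7 CPM in GFP-AGO2 and 28.04 and 18.1 CPM in Control. The groups overlapped, and the log2 fold change of -0.07 had an SE of 0.54 (edgeR adjusted p = 0.947), wide against a change of the size seen for miR-181a-2-3p. The sign was positive with total counts (0.13). Its seed is that of miR-181a-1-3p.

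The remaining names were too rare to test. MiR-181b-2-3p had 1 and 3 counts in GFP-AGO2 and 0 in both Control libraries, where a count of 0 allows up to 2.98 and 4.45 CPM of the unscaled totals. MiR-181d-3p had 5 and 0 counts in GFP-AGO2 and 4 and 0 in Control. No fold is given for either.

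**Figure D2:**
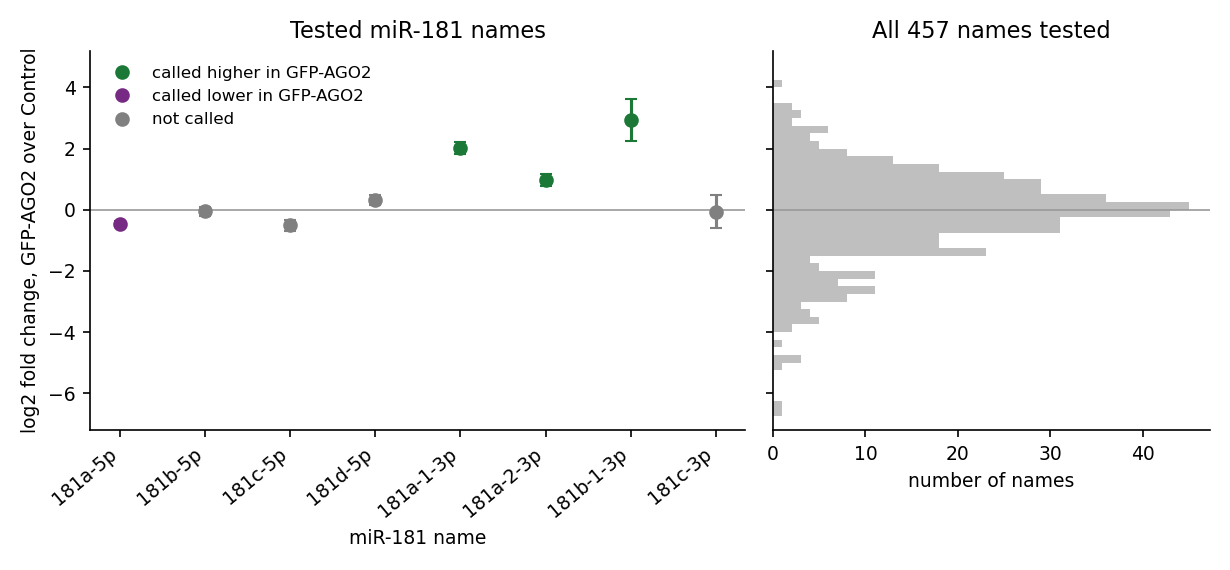
Left, log2 fold change of GFP-AGO2 over Control (points) with its standard error (bars) for the 8 tested miR-181 names; right, the number of names at each log2 fold change among all 457 tested. The called 3p arms stand at 0.98 to 2.93, and all other points lie between -0.51 and 0.33.

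Since the 3p and 5p arms of a hairpin are cut from the same precursor, their ratio within a library was compared over every hairpin with both arms tested. In GFP-AGO2 the 3p arms of miR-181a-1, miR-181a-2 and miR-181b-1 had more reads relative to their 5p name than in Control. The 5p name still held nearly all reads in both groups. Each of these 5p names is made by 2 hairpins, so no arm share within a single hairpin was measured. For a 3p arm taken alone, a shift of the arms cannot be told apart here from a change in the mix of the 2 hairpins. Relative to their shared 5p name both miR-181a 3p arms rose, miR-181a-1 by 5.54-fold and miR-181a-2 by 2.70-fold. The part of the mix in these rises was not tested. These 3 of the 4 tested miR-181 hairpins were called higher by limma on the log2 ratio, where 17.4% of all 132 hairpins were called higher and 6.82% lower. The miR-181b-1 and miR-181a-1 changes ranked 6th and 7th of the 132 from the highest, and miR-181a-2 ranked 23rd; the median change over all hairpins was 0.07. Of the 74 hairpins whose 3p arm was the lesser one, 14 were called higher (18.9%). The miR-181b-1 hairpin was among those tested only because its 3p arm was high in GFP-AGO2.

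The 3p arm of miR-181a-1 was 1.33% (95% exact interval 1.25 to 1.43) and 1.27% (1.17 to 1.38) of its arm counts in GFP-AGO2, against 0.229% (0.175 to 0.293) and 0.243% (0.176 to 0.327) in Control. The log2 ratio rose by 2.47 (SE 0.22, limma adjusted p = 0.00033), or 5.54-fold. For miR-181a-2 the 3p share was 0.878% (0.806 to 0.954) and 1.002% (0.909 to 1.101) in GFP-AGO2 and 0.339% (0.273 to 0.415) and 0.356% (0.274 to 0.455) in Control. Its log2 ratio rose by 1.43 (SE 0.22, limma adjusted p = 0.00365), or 2.70-fold. In both, the counting intervals of the groups did not meet. Both ratios use the same miR-181a-5p counts, made by both hairpins, so they are not independent and each 3p share is a lower bound on the share within its own hairpin.

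For miR-181b-1 the 3p share was 0.181% (0.141 to 0.229) and 0.369% (0.292 to 0.460) in GFP-AGO2 and 0.0175% (0.00212 to 0.0633) and 0.0546% (0.0149 to 0.140) in Control. This hairpin passed the filter only through its 3p counts in GFP-AGO2. Its log2 ratio rose by 2.83 (SE 0.78, limma adjusted p = 0.0354). It was not called without GFP-AGO2 replicate 1 (3.35, limma adjusted p = 0.0771) or GFP-AGO2 replicate 3 (2.32, limma adjusted p = 0.34), and was 2.09 and 3.57 without Control replicates 1 and 3, where it was called. The miR-181c hairpin, the only one of the chromosome 8 cluster that could be tested, had a 3p share of 11.8% (9.60 to 14.3) and 5.33% (3.57 to 7.62) in GFP-AGO2 and 7.11% (4.73 to 10.2) and 5.61% (2.83 to 9.82) in Control. The GFP-AGO2 libraries lay on both sides of the Control libraries, and the change of 0.34 (SE 0.55, limma adjusted p = 0.727) turned to -0.28 without GFP-AGO2 replicate 1. For miR-181d the 3p arm was 0.147% (0.0479 to 0.344) in GFP-AGO2 replicate 1 and 0.491% (0.134 to 1.25) in Control replicate 1, and had no count in the other library of either group. Of all hairpins, 32 were called, 19 of them toward the lesser arm, and 49 were called without Control replicate 1.

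**Figure D3:**
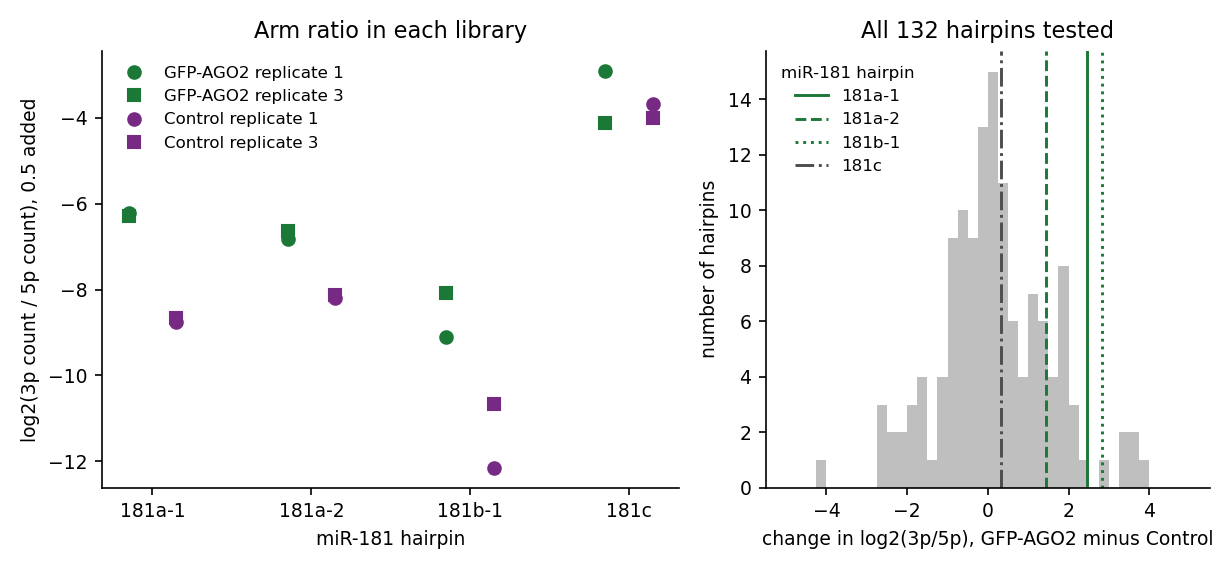
Left, log2 of the 3p count over the 5p count (0.5 added to each) in every library for the 4 tested miR-181 hairpins; right, the number of hairpins at each change of this ratio (GFP-AGO2 minus Control) among all 132 tested, with the miR-181 hairpins as lines, green where called. For miR-181a-1, miR-181a-2 and miR-181b-1 both GFP-AGO2 libraries lie above both Control libraries, and for miR-181c they overlap.

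The counts were also shared out differently within the family. Among the 5p counts, miR-181a-5p held 59.4% (59.1 to 59.7) and 64.0% (63.6 to 64.4) in GFP-AGO2 and 68.3% (67.8 to 68.7) and 68.8% (68.2 to 69.3) in Control. MiR-181b-5p held 36.7% (36.4 to 37.0) and 32.3% (31.9 to 32.6) in GFP-AGO2 and 28.8% (28.3 to 29.2) and 28.6% (28.005 to 29.1) in Control. MiR-181d-5p held 3.26% (3.16 to 3.37) and 2.96% (2.83 to 3.09) in GFP-AGO2 and 2.04% (1.91 to 2.19) and 1.97% (1.80 to 2.15) in Control, while miR-181c-5p stayed under 1% in every library. So miR-181a-5p held less and the b and d arms more of the seed-bearing counts in both GFP-AGO2 libraries. The miR-181a-5p share averaged 61.7% ± 3.25 in GFP-AGO2 and 68.5% ± 0.334 in Control (SD, n = 2 each), with exact permutation p = 0.333, the smallest possible. The GFP-AGO2 libraries differed from each other by more than the Control libraries did, and the difference of -6.80 points between the means was -4.50 without GFP-AGO2 replicate 1.

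All 6 3p arms together were 1.47% (1.396 to 1.54) and 1.61% (1.52 to 1.71) of the family's counts in GFP-AGO2, against 0.470% (0.405 to 0.542) and 0.469% (0.390 to 0.561) in Control. Of these 3p counts, the chromosome 1 arms held 58.4% (55.9 to 60.9) and 57.6% (54.6 to 60.6) in GFP-AGO2 and 34.2% (27.5 to 41.5) and 38.8% (30.1 to 48.1) in Control. The chromosome 2 arms held 35.4% (33.0 to 37.8) and 39.8% (36.9 to 42.8) in GFP-AGO2 and 49.2% (41.8 to 56.6) and 52.1% (42.8 to 61.2) in Control. The chromosome 8 arms held 6.21% (5.06 to 7.53) and 2.59% (1.72 to 3.72) in GFP-AGO2 and 16.6% (11.6 to 22.7) and 9.09% (4.63 to 15.7) in Control. The chromosome 1 cluster was thus the largest source of 3p counts in GFP-AGO2 and the chromosome 2 cluster in Control, by 58.0% ± 0.559 against 36.5% ± 3.27 for chromosome 1 (SD, n = 2 each; exact permutation p = 0.333, the smallest possible). Only 187 and 121 counts stand behind the Control shares.

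**Figure D4:**
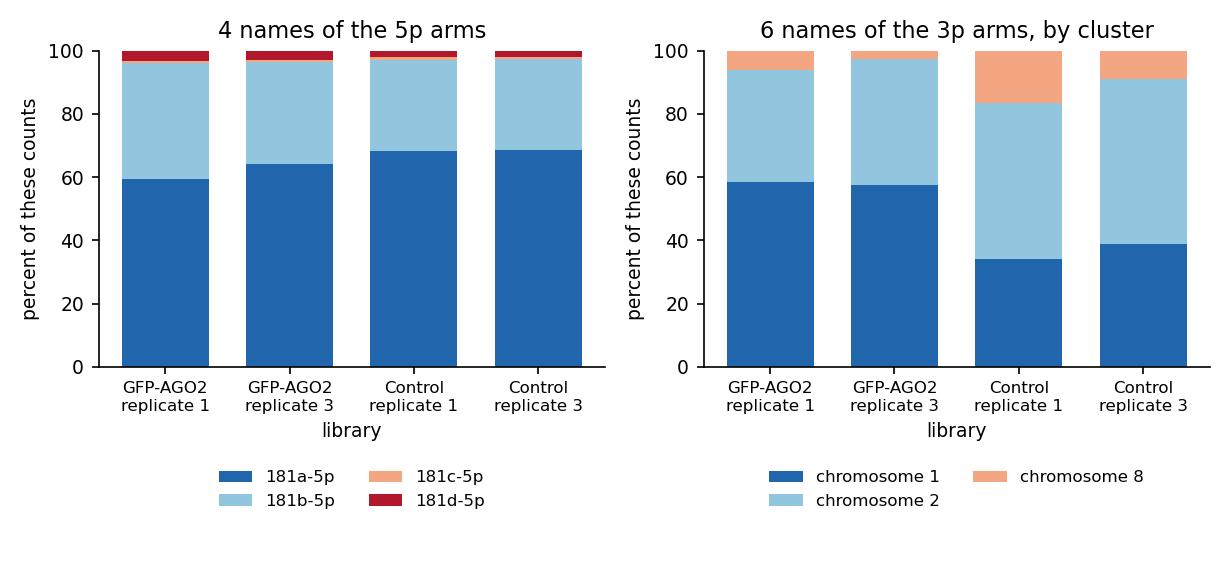
Left, percent of the counts of the 4 5p names held by each in every library; right, percent of the counts of the 6 3p names that come from each genomic cluster. The miR-181a-5p part is 59.4% to 64.0% in GFP-AGO2 and 68.3% to 68.8% in Control, and the chromosome 1 part is 57.6% to 58.4% in GFP-AGO2 and 34.2% to 38.8% in Control.

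The names outside the family whose pattern over the 4 libraries was most like that of a member were taken by the distance between log2 CPM values, each centred on its own mean. Nearest to miR-181a-5p were miR-598-3p, miR-33-5p and miR-379-5p, at distances of 0.07, 0.10 and 0.10 (log2). Nearest to miR-181a-1-3p were miR-344f-3p, miR-543-3p and miR-487b-3p, at 0.13, 0.18 and 0.18. Nearest to miR-181a-2-3p were miR-222-3p, miR-30e-5p and miR-877-5p, at 0.17 each. Nearest to miR-181b-1-3p were miR-3103-3p, miR-504-5p and miR-702-3p, at 0.62, 0.65 and 0.69, so this rare arm had no close match. The likeness is over 4 libraries in 2 groups and is a description only.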

How the data were processed

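The authors deposited whole-number counts per mature miRNA name, made per the file headers with featureCounts 1.4.6-p1 on primary alignments over a miRNA annotation of mm10, with no strand option. Cutadapt and STAR are named in the submitters' processing notes, with versions not given in the sources used here. Columns were tied to samples by title; totals per library were 673916 to 2809758 counts, and replicates of a group were not copies of each other (chi-square over names, 47941 on 538 degrees of freedom in GFP-AGO2 and 4756 on 442 in Control).

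Counts were tested with edgeR 4.0.16 (R 4.3.3; quasi-likelihood F test, TMM scaling, filterByExpr at a minimum count of 10, Benjamini-Hochberg adjustment over 457 names). SE is the log2 fold change over the root of F. Arm ratios, log2 of (3p + 0.5) over (5p + 0.5), were tested with limma 3.58.1 over 132 hairpins whose arms start within 100 bases, with the spread trended on the lesser arm. Shares were compared by exact permutation (scipy 1.17.1). DESeq2 1.42.0, other scalings and filters, and the omission of each library were alternatives. Both tests were tested on simulated data. Sequences are from RefSeq (GRCm38.p6) and gene annotation from GENCODE (GRCm38). All 10 members are named, with the 3 nearest names (prior count 2) for miR-181a-5p and for each called member. Members and lists were chosen with earlier results of these data known. The blood and immune list has 11 names, of which 7 were in the table.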

Additional observations from a re-analysis of the deposited data

How the results depend on the processing

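Across the settings tried, 88 re-computed values for single names and hairpins kept their direction and side of the threshold, 8 lost a call, 3 gained one and 9 changed sign. The count of members called higher was 3, also with RLE size factors, DESeq2 and the replicate block, 4 with total counts or no filter and 2 with a minimum count of 50. The count called lower was 1, but 0 with total counts, 0 with no filter, 0 with the replicate block and 2 with a minimum count of 50; without 1 library it was 0 to 1, and the count called higher 2 to 3. With the replicate number as a block miR-181a-5p had -0.46 (edgeR adjusted p = 0.112); the block changed no other call of a member. Whether equal replicate numbers mark a pairing is not known. Replicate differences of the groups correlated at -0.08 over 457 names, which gives no sign of pairing but cannot exclude it. Sign changes were seen in names that were never called: miR-181b-5p had 0.17 with total counts and 0.20 with no filter, and miR-181c-3p had 0.13 and 0.18. Without 1 library miR-181b-5p had -0.17 to 0.11, miR-181c-3p -0.74 to 0.41 and the miR-181c arm ratio -0.28 to 0.95. The 32 hairpins called became 26 to 49 without 1 library and 44 with the replicate block. The family's difference in share of -0.208 points was -1.27 without the epithelial names in the total and -0.776 on TMM-scaled CPM, and -0.276 to -0.141 without 1 library. The difference in miR-181a-5p share ran from -9.10 to -4.50 points and in chromosome 1 share from 19.2 to 23.8 points without 1 library. The cause of these moves was not tested. Low counts limit miR-181b-1-3p, miR-181c-3p and the untested 3p arms.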
